A study of Gadus morhua with 47 samples.

Results

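Transcript levels were compared between female and male Atlantic cod (Gadus morhua) in liver slices that had received no ethynylestradiol (EE2), a synthetic estrogen. The comparison took in every slice kept in the vehicle dimethyl sulfoxide (DMSO) or with the aromatic hydrocarbon benzo[a]pyrene (BaP) at 10 nM or 1 µM, less 3 slices that stood apart from the rest of the series. This left 19 of 47 slices, 7 from females and 12 from males. Each fish gave several slices, so log2 CPM (counts relative to library size) were averaged per fish first, and the fish was the replicate, with 3 females (fish 3, 6 and 8) and 5 males (fish 1, 2, 4, 5 and 7). The samples were precision-cut slices, which are thin pieces of living tissue held in culture medium, and the fish number and sex are those of the labels. The labels give neither the age nor the maturity of the fish, and no strain.

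Both sexes had slices in every treatment. There were 3 female and 4 male slices with DMSO, 2 and 4 with BaP 10 nM, and 2 and 4 with BaP 1 µM. Fish 1, 3, 4 and 5 gave 3 slices each, fish 2, 6 and 8 gave 2 each, and fish 7 gave 1, with DMSO. The slices with EE2, alone or mixed with BaP (Mix), came from the same 8 fish and are used below only as a second reading, with 10 female and 14 male slices.

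In egg-laying fish the liver is a main site of sex differences in gene expression. Estrogen from the ovary of a maturing female makes the liver produce vitellogenins, the yolk precursor proteins, and proteins of the egg envelope. Males carry the same genes and respond when they are given an estrogen such as EE2. In cod the liver is also the main fat store, so its weight relative to the body varies with feeding and condition. The deposited tables carry transcript identifiers without gene names, and the name table for this species matched 0 of the 22100 identifiers. Vitellogenins, liver markers and genes of the sex chromosomes could therefore not be picked out, and neither the tissue label nor the sex labels could be checked against marker genes. Transcripts are described by identifier, coding length and level.

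Sex and liver size were partly confounded. The females had liver weights of 4.47% (fish 3), 4.03% (fish 6) and 7.4% (fish 8) of body weight. The males had 5.51% (fish 1), 11.8% (fish 2), 12.4% (fish 4), 6.6% (fish 5) and 11.3% (fish 7). The 3 fish with the largest livers for their weight were all male and the 2 with the smallest were both female, but female fish 8 lay above male fish 1 and 5. The mean was 5.3% ± 1.83 (SD, n = 3) in females and 9.54% ± 3.22 (SD, n = 5) in males, with an exact two-sided permutation p of 0.107 (adjusted p = 0.571 over 12 properties of the fish and libraries). Body weight averaged 486 g ± 130 in females and 505 g ± 195 in males. With 56 possible splits of 8 fish the smallest p the design allows is 0.0357.

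**Figure D1:**
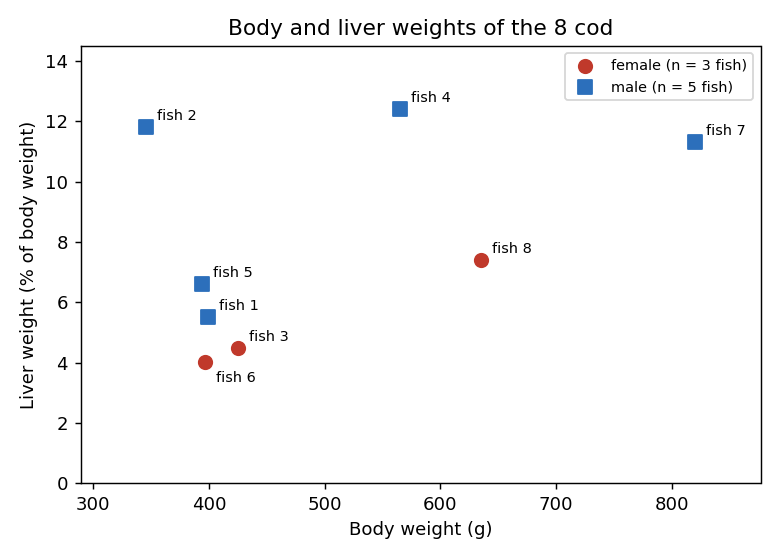
Liver weight as a percent of body weight (vertical axis) against body weight in grams (horizontal axis) for the 8 cod, with 1 point per fish, circles for females and squares for males. Male fish 2, 4 and 7 lie at 11.3% or above, and male fish 1 and 5 lie among the females.

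Libraries of the 19 slices held 36.57 M to 66.95 M mapped counts (M, mega; median 49.98 M), so that 3 counts correspond to 0.04481 to 0.08203 CPM. Between 17770 and 19330 transcripts had at least 1 count, and 15.34% to 22.93% of all counts fell on the top 10. The property of the libraries with the lowest p was the share of read segments placed on no transcript, with means of 44.1% in females and 47.1% in males (exact permutation p = 0.0714, adjusted p = 0.571).

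The direction in which the fish differed most did not separate the sexes. The first principal component of the averaged levels held 39.8% of the variance and set fish 7, a male, and fish 8, a female, at 93.7 and 96.1, apart from the other 6 fish at -61.1 to -8.27. Fish 7 and 8 were the heaviest of the 8. The mean position was 3.5 in females and -2.1 in males (exact permutation p = 0.929, adjusted p = 1). The second component held 16.2% and the third 13.2%, and the same test between the sexes gave p = 0.857 and 0.143 (adjusted p = 1 and 0.571, exact permutation). Over all transcripts the difference between the sexes held 10.3% of the sum of squares between fish, where an even share over the 7 degrees of freedom would be 14.3%.

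**Figure D2:**
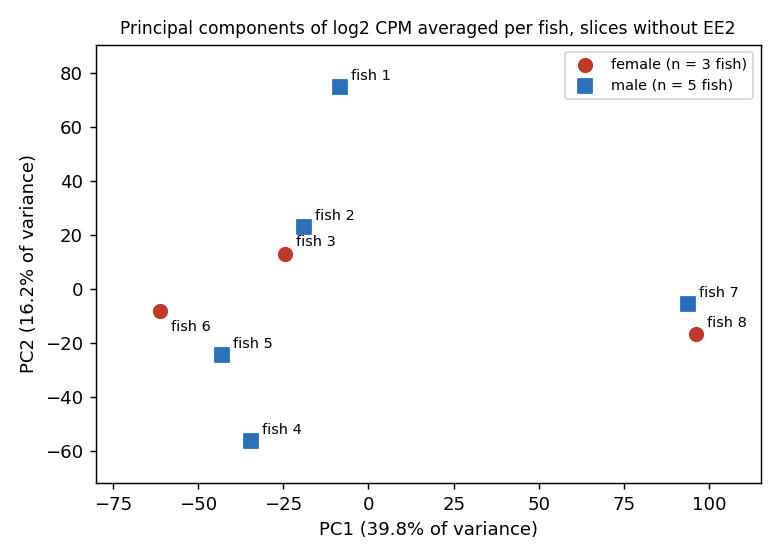
First (horizontal) and second (vertical) principal components of log2 CPM averaged per fish over slices without EE2, in arbitrary units, with 1 point per fish, circles for females and squares for males. Fish 7 and 8, a male and a female, lie to the right at 93.7 and 96.1, and females and males are mixed among the other 6 fish.

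At a transcript of 402 coding bases male fish 7 lay with the females, and results that rest on this fish are given with and without it. The transcript was singled out after its values were seen, and it need not be the only one of this kind. All 23 slices of females 3, 6 and 8 and of male 7 held 102 to 244 counts of it, whatever the treatment. All 24 slices of males 1, 2, 4 and 5 held at most 3 counts. Without EE2 its level was 1.6, 1.71 and 1.19 log2 CPM in females 3, 6 and 8 and 1.84 in male 7. In males 1, 2, 4 and 5 it was -4.17, -4.2, -4.48 and -4.32. The transcript has no gene name and is not a check of the sex label of fish 7, and no check of that label was made.

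No transcript passed the test between the sexes. Of 22100 transcripts, 16752 passed the filter on low counts, and limma's moderated test on the averages of 3 against 5 fish called 0 of them (0%) at an adjusted p under 0.05. The smallest unadjusted p was 8.55e-05, with an adjusted p of 1. At an unadjusted p under 0.05 there were 391 transcripts, or 2.33% of those tested, 173 with the higher level in females and 218 with the higher level in males. That share is below the 0.05 that evenly spread p-values would give. The quasi-likelihood test of edgeR on counts summed per fish also called 0, with 458 at an unadjusted p under 0.05. DESeq2 on the same sums called 12, 3 higher in females and 9 higher in males, and gave no adjusted p for 469 transcripts. The median standard error of a difference was 0.366 on the log2 scale, and the median absolute difference was 0.213. A difference of more than 1 on the log2 scale was measured for 736 transcripts, 327 higher in females and 409 higher in males. In these bulk libraries fewer cells of a type and less RNA per cell cannot be told apart.

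Fish of the same sex differed more than slices of the same fish. The SD between slices of 1 fish had a median of 0.254 log2 units over the transcripts, and the SD between fish of 1 sex had a median of 0.504. The median SD was 0.489 among females and 0.471 among males.

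For 333 transcripts, 1.99% of those tested, the fish of the sexes did not overlap. Near-identical transcripts could share reads, so the 333 may not be separate observations. With the sexes assigned at random to the 8 fish, a transcript would not overlap with a probability of 0.0357. The observed share does not exceed that, so the 333 are described only. In 145 (0.866%) all 3 females lay above all 5 males, and in 188 (1.12%) all males lay above all females. The transcripts higher in females had a median difference of 0.75 and a largest of 1.98 on the log2 scale. Of the 145, 44 differed by at least 2-fold and 0 by at least 4-fold. The 188 higher in males had a median difference of -0.62 (female minus male), and 45 differed by at least 2-fold, 11 by at least 4-fold and 3 by at least 8-fold. The widest difference was -5.47. Leaving out any 1 fish gave 396 to 1501 non-overlapping transcripts (886 without fish 7 and 1501 without fish 8), since fewer fish overlap less often by construction. The probability of 0.0357 is that for 3 against 5 fish and is larger with fewer fish. The counts and shares with a fish left out are therefore not set against it. The sizes at the upper end were counted again without fish 7 only, so a change need not be particular to this fish. Without fish 7, 443 transcripts (2.64%) lay higher in all females, 9 of them by at least 4-fold and 2 by at least 8-fold. The widest of these differences was 5.79, that of the 402-base transcript. The same number lay higher in all males without fish 7, 24 by at least 4-fold and 8 by at least 8-fold, with a widest difference of -6.37.

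The gap between the lowest fish of the higher sex and the highest fish of the other was mostly narrow. It exceeded 1 log2 unit in 1 of the 145 transcripts and in 4 of the 188. The transcripts higher in females had a median coding length of 1347 bases and a median level of 1.91 log2 CPM. Those higher in males had 943.5 bases and 2.93, against 1140 bases and 3.01 for all tested. The mean slope of log2 CPM on log2 coding length also differed between fish, at 0.241 in male fish 4 and 0.356 to 0.412 in the others. Slices of fish 4 differed widely, at 0.2516 with DMSO, 0.3398 with BaP 10 nM and 0.1303 with BaP 1 µM. The first 2 of these treatments and the third are therefore not alike in fish 4. The slope averaged 0.396 in females and 0.359 in males. Whether this slope bears on the coding lengths of the 145 and the 188 was not tested. Among the 145, the male nearest to the females was most often fish 7, in 61, and the female nearest to the males was most often fish 8, in 59. Among the 188 it was male fish 7 in 53 and female fish 8 in 73.

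The 4 transcripts described next are those with the smallest p in each direction among transcripts at an average of 0 log2 CPM or more whose sexes did not overlap. None passed the test (adjusted p = 1, limma). Since they were picked for these levels, their non-overlap is a description.

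ENSGMOT00000000401.1, of 2520 coding bases, had the widest difference of all non-overlapping transcripts. The females stood at -1.63, -1.71 and -2.36 log2 CPM (fish 3, 6 and 8). The males stood at 5.61, 2.91, 5.01, 4.35 and -0.01 (fish 1, 2, 4, 5 and 7). Fish 7 was the lowest male but still above each female, and the other males were far higher. The counts per slice were 9 to 27 in females (median 13) and 66 to 2470 in males (median 1178). The means were -1.9 ± 0.4 (SD, n = 3) in females and 3.57 ± 2.24 (SD, n = 5) in males, a difference of -5.47 ± 1.09 (SE), or 44.5-fold, with an unadjusted p of 0.00059 by limma. Without fish 7 the difference was -6.37 ± 0.59 and passed the test (adjusted p = 0.019, limma).

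ENSGMOT00000007277.1, of 573 coding bases, was also higher in males. The females stood at -1.23, -0.41 and -1.26 log2 CPM. The males stood at 0.58, 1.56, 1.63, 2.68 and 1.64, with fish 1 lowest and fish 5 highest. Slices held 16 to 36 counts in females (median 26) and 51 to 466 in males (median 151). The difference was -2.59 ± 0.47 (SE; unadjusted limma p = 0.000307), or 6.01-fold, and -2.58 ± 0.51 without fish 7. Of the 10 non-overlapping transcripts with the smallest p in this direction, 2 more have identifier numbers within 40 of this one. They have coding lengths of 1044 and 831 bases and differences of -3.08 ± 0.71 and -3.02 ± 0.72 (SE). Near-identical copies could share reads, so the 3 may not be separate observations, and the pair was singled out after their values were seen.

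ENSGMOT00000006466.1, of 1653 coding bases, was the transcript with the smallest p. The females stood at 3.26, 3.22 and 2.88 log2 CPM. The males stood at 1.66, 1.3, 1.08, 1.35 and 1.71. Both sexes were tight, with SDs of 0.21 and 0.26 around means of 3.12 and 1.42. Counts per slice ran from 372 to 593 in females (median 495) and from 38 to 224 in males (median 125.5). The difference was 1.7 ± 0.26 (SE; unadjusted limma p = 8.55e-05), or 3.24-fold, and it was 1.77 ± 0.27 without fish 7 (adjusted p = 0.29).

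ENSGMOT00000009267.1, of 1611 coding bases, was higher in females with more spread. The females stood at 2.85, 1.56 and 1.96 log2 CPM. The males stood at 0.61, 1.22, 0.33, 0.48 and 0.09. Female 6 and male 2 were the nearest, 1.56 against 1.22. Slices held 109 to 571 counts in females (median 292) and 19 to 143 in males (median 72). The difference was 1.58 ± 0.39 (SE; unadjusted limma p = 0.00248), or 2.99-fold, and 1.47 ± 0.39 without fish 7.

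**Figure D3:**
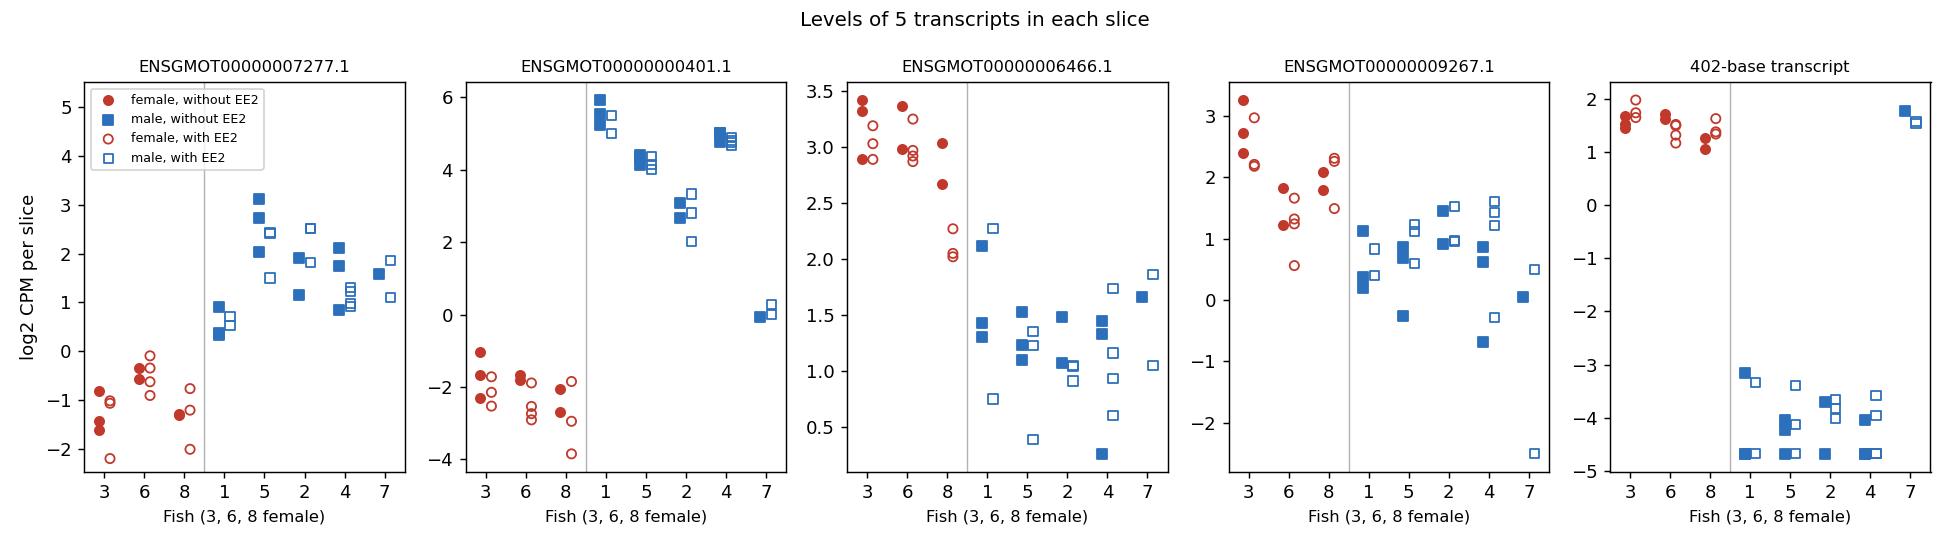
Log2 CPM per slice (vertical axis, a separate scale in each panel) for the 4 transcripts described by identifier and the 402-base transcript, by fish (horizontal axis). Circles are females, squares are males, filled points are slices without EE2 and open points are slices with EE2. The levels are scaled over all 47 libraries, so they differ slightly from the fish averages in the text. In the last panel the DMSO slice of male fish 7 lies with the females at 1.78, and the other males lie near the floor.

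In the slices used, the 4 transcripts kept the sexes apart in each of the 3 treatments taken singly. With the left-out slices this would not hold for ENSGMOT00000007277.1 with BaP 1 µM. Scaled over all 47 libraries, the left-out slice of male 7 lay there at -0.98 log2 CPM (22 counts), below female 6 at -0.57. They were picked for non-overlap in the averages of these same slices, so this is a description. Each BaP treatment held only 2 females and 4 males. For ENSGMOT00000000401.1 the difference was -5.87 with DMSO, -6.26 with BaP 10 nM and -6.07 with BaP 1 µM. For ENSGMOT00000007277.1 it was -2.8, -2.8 and -2.26. For ENSGMOT00000006466.1 it was 1.98, 1.34 and 1.94, and for ENSGMOT00000009267.1 it was 1.73, 2.25 and 1.2. Fish 7 is present only with DMSO, and the 402-base transcript overlapped there and not in the BaP slices.

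Leaving out fish 7 altogether left 3 females and 4 males, and limma then called 2 transcripts (0.0119% of those tested), 1 in each direction. They were ENSGMOT00000000401.1 and the 402-base transcript, for which the difference was 5.79 ± 0.46 (SE; adjusted p = 0.0109) without fish 7 and 4.56 ± 1.35 (adjusted p = 1) with it. At both transcripts fish 7 was the male nearest to the females, so leaving it out narrows the spread among males by construction. Leaving out any other single fish gave 0 calls. At an unadjusted p under 0.05 there were 693 transcripts without fish 7.

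Few transcripts behaved as present or absent per fish. In 15, every fish had either at least 50 counts in each used slice or at most 3 in each, with both kinds of fish. Of these, 0 were present in all females and absent in all males, and 0 the reverse. The 402-base transcript was present in 3 females and 1 male, and a further 1 in 3 females and 2 males. In 4 all females lacked the transcript, 2 of which were present in 1 male and 2 in 2 males, and in 9 the females differed among themselves. At most 3 summed counts in one sex, with 10 or more in some slice of every fish of the other, was met by 0 transcripts in either direction. Raising the limit to 10 summed counts gave 1, of 387 coding bases, with 8 counts over all male slices and 2 to 16 in each female slice. With EE2 its female slices held 0 to 9 counts and its male slices up to 5, so it was not detectable as limited to a sex at this depth.

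Liver size was then set beside the sex difference. Males 1 and 5 had the livers nearest to those of the females for their body weight. For ENSGMOT00000000401.1 males 1 and 5 stood at 5.61 and 4.35 log2 CPM and males 2, 4 and 7, with the larger livers, at 2.91, 5.01 and -0.01, so the levels of the small-liver and large-liver males overlapped. Against males 1 and 5 alone the differences of the 4 transcripts were -6.88, -2.6, 1.62 and 1.58, in the order ENSGMOT00000000401.1, ENSGMOT00000007277.1, ENSGMOT00000006466.1 and ENSGMOT00000009267.1. With liver weight as percent of body weight as a covariate they were -6.86 ± 1.31, -2.6 ± 0.65, 1.51 ± 0.35 and 1.56 ± 0.53 (SE; adjusted p = 0.985, limma). With that covariate 0 of 16752 transcripts passed, and the median SE widened from 0.366 to 0.471. Against males 1 and 5 alone 0 passed as well, with 264 at an unadjusted p under 0.05. The 4 transcripts were picked with all males, 1 and 5 included, apart from the females, so the direction against males 1 and 5 was fixed in advance. Sex and liver size cannot be told apart with these fish, neither for the 4 transcripts nor over the transcripts as a whole.

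The slices with EE2 gave a second reading of the same fish in other libraries. Limma called 0 of 16752 transcripts (0%) between the sexes there, with 297 at an unadjusted p under 0.05. The sexes did not overlap in 283 transcripts (1.69%), a share again below 0.0357. Of these, 107 were also non-overlapping in the same direction without EE2, which is 32.1% of the 333 and 37.8% of the 283. These comprised 37 of the 145 higher in females and 70 of the 188 higher in males. The fish are shared, so this is no independent replication. For the 4 transcripts the difference with EE2 was -5.93 ± 1.01 for ENSGMOT00000000401.1, -2.6 ± 0.47 for ENSGMOT00000007277.1, 1.51 ± 0.32 for ENSGMOT00000006466.1 and 1.35 ± 0.54 for ENSGMOT00000009267.1 (SE, 3 against 5 fish). Without fish 7, 3 transcripts passed with EE2 (0.0179%), and 2 of them were the pair that passed without EE2. Their differences were -6.74 ± 0.58 for ENSGMOT00000000401.1 (adjusted p = 0.0118) and 5.6 ± 0.42 for the 402-base transcript (adjusted p = 0.00832, limma). At both, fish 7 was again the male nearest to the females, at 0.22 and 1.64 log2 CPM with EE2. Leaving it out narrows the spread among the same males by construction, so these passes are no further support.

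Whether a treatment changed the sexes differently was tested on the change within each fish. For EE2, limma called 0 of 16752 transcripts (0%) over 8 fish, with 522 at an unadjusted p under 0.05. ENSGMOT00000000401.1 had a change with EE2 of -0.58 in females and -0.11 in males, a difference of -0.46 ± 0.16 (SE; unadjusted p = 0.0175) that did not pass the adjustment. For BaP 1 µM against DMSO, only 2 females and 3 males had both slices, and 0 transcripts (0%) were called, with 897 at an unadjusted p under 0.05 and a smallest adjusted p of 0.816.

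Transcripts raised by EE2 in the presence of BaP were then read in slices kept in DMSO. Since no gene names were at hand, the list was made from the data: a quasi-likelihood test of edgeR with fish as a block compared Mix with BaP over 23 slices and called 160 of 17395 transcripts higher with EE2 (0.920%) and 51 lower. The list was read in the DMSO slices of 3 females and 4 males, which share fish but no library with that test. Of the 160, 139 were among the tested transcripts, and 21 had too few counts. Females had the higher mean for 67 of the 139 (48.2%), against 48.6% of all tested transcripts, and the median difference was -0.031 against -0.011. The sexes did not overlap in 3 of the 139 members with females higher and in 1 of the 139 with males higher. Over all 16752 tested transcripts they did not overlap in 169 (1.01%) and 206 (1.23%). The counts of members are too small to set these shares apart. A mean at least 2-fold higher in females was measured for 18 members (12.9%), against 3.33% of all tested. For males it was 2 members (1.44%), against 2.67%. Members that passed the filter through the female slices alone had to be higher there, so these shares are descriptive.

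The 31 members raised at least 8-fold, a limit chosen after the values were seen, gave a mean level in every DMSO slice. Only 10 to 21 of the 31 held at least 3 counts in a DMSO slice, and 18 of the 31 did not pass the filter on low counts. The mean therefore rests in part on values near the floor. The mean log2 CPM of the 31 was -1.15, -2.04 and -2.53 in females 3, 6 and 8. In males 1, 4, 5 and 7 it was -3.12, -2, -2.96 and -2.66. Female 3 was the highest of the 7 slices, but male 4 lay above females 6 and 8, so the sexes overlapped. With EE2 alone at either dose the same mean ran from 0.5 to 3.16 in females and from -0.68 to 2.26 in males.

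Members differed in how they stood among the fish. The one with the highest mean log2 CPM with EE2 alone, among the 13 of the 31 that were tested, has 4902 coding bases. It stood in DMSO slices at 52.5, 12.2 and 14.2 CPM in females 3, 6 and 8. It stood at 6.81, 8.07, 5.06 and 8.59 CPM in males 1, 4, 5 and 7, below each female. Of the 13, only this 1 had sexes that did not overlap in DMSO. With EE2 1 µM it reached 1810, 154 and 9760 CPM in these females and 1120, 226 and 30.2 CPM in males 1, 4 and 5, where the sexes overlapped. Another member, of 1074 coding bases, was at 585 CPM in the DMSO slice of female 6. It was at 15.3 and 15.5 CPM in females 3 and 8 and at 5.68, 57.9, 5.95 and 2.48 CPM in males 1, 4, 5 and 7. Both were singled out after their values were seen. For the change with EE2, limma called 0 of the 139 tested members between the sexes, with a median difference of 0.09 against 0.003 for all tested.

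**Figure D4:**
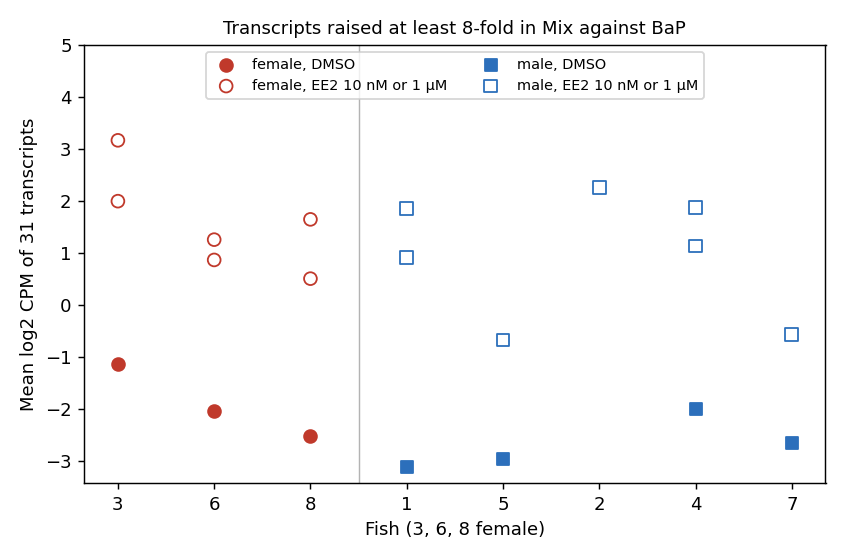
Mean log2 CPM of the 31 transcripts raised at least 8-fold in Mix against BaP (vertical axis), by fish (horizontal axis), with 1 point per slice. Circles are females, squares are males, filled points are DMSO slices and open points are slices with EE2 alone. In DMSO female 3 is highest at -1.15, and male 4 at -2 lies above females 6 and 8. In the DMSO slices 10 to 21 of the 31 transcripts held at least 3 counts, so these means rest in part on values near the floor.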

How the data were processed

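The authors' deposited tables give raw counts of mapped read segments per transcript, for which the submitters' processing notes name HISAT2 2.1.0, SAMtools 1.4.1 and FastQC 0.11.5. Libraries were stranded mRNA libraries, per the labels' protocols. The build is not given in the sources used here. Because each mate of a pair adds to the count, counts are not independent molecules, and floors cover counting error only. Segments placed on no transcript (41.84% to 49.66%) stayed out.

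The slices left out (fish 2 with DMSO, fish 6 with BaP 10 nM, fish 7 with BaP 1 µM and, among slices with EE2, fish 8 with Mix 1 µM) had scaling factors of 0.665, 0.582, 0.758 and 0.57, against 0.846 or more in the others. No 2 libraries were identical.

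Log2 CPM used TMM factors and a prior count of 2 (edgeR 4.0.16, R 4.3.3). Transcripts passing edgeR's expression filter by sex (minimum count 10, minimum total 15) were averaged per fish and tested with limma 3.58.1 (trend), with Benjamini-Hochberg adjustment and a threshold of 0.05. DESeq2 1.42.0 was an alternative. A fish number marks 1 animal, with the same sex and weights in all its labels, so slices of a fish are not replicates. Without gene names, at most 2 identifiers per direction were printed: those that passed, otherwise the smallest p among non-overlapping transcripts at an average of 0 log2 CPM or more. The pathway and marker lists could not be applied. The comparison, the slices left out and the lists were chosen with earlier results of these data known. Code was tested on simulated data.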

Additional observations from a re-analysis of the deposited data

Results flagged for a closer look

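In 22 groups of 5 male fish, the gap of the farthest fish to its neighbour was set against the whole range, with a limit of 0.71. Chance passes that limit in about 1 in 20 groups. The 4 values past it all belong to fish 7, but 2 of them are the 402-base transcript, which was singled out with the values of fish 7 known, and the readings with EE2 come from the same fish. Their number is therefore not set against chance. Fish 7 lay at 1.84 log2 CPM for the 402-base transcript without EE2 and at 1.64 with EE2, above the other 4 males. It lay at -0.925 log2 CPM for ENSGMOT00000009267.1 with EE2, below the other males. That average joins unlike slices, at -2.51 with EE2 10 nM (8 counts) and 0.5 with Mix 10 nM (78 counts). On the first principal component fish 7 lay at 93.7, above the other males. Without EE2 fish 7 is represented by 1 slice.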

How the results depend on the processing

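The count of transcripts called between the sexes was 0 under 22 of 25 alternatives. It was 12 with DESeq2, which gave no adjusted p for 469 transcripts and called 3 of the 4 named ones. It was 1 with the replicate block, in which single slices were fitted with fish as a random effect (correlation 0.769). That call was ENSGMOT00000000401.1, at -5.59 ± 0.83 (SE; adjusted p = 0.0229, limma). Leaving out each fish gave 0 to 2 without EE2, 0 to 3 with EE2, 0 to 1 for the difference in the change with EE2 (1 without fish 8) and 0 for that with BaP 1 µM. Counts of non-overlapping transcripts rise by construction with fewer fish, to 396 to 1501 without 1 fish, 2162 with males 1 and 5 only and 2119 without fish 7 and 8. The probability of 0.0357 under random assignment is for 3 against 5 fish and is larger with fewer, so these counts do not measure an excess. The limit of 10 counts gave 1 transcript limited to a sex. The median of the list raised by EE2 was 0.05 and 0.09 when the list came from 10 nM or 1 µM alone. The 4 named transcripts reversed in none of their 24 or 25 alternatives. They were picked for non-overlap of the same fish, so where fish were left out or weighted the direction was all but fixed in advance. The lack of reversals is therefore a description. ENSGMOT00000000401.1 ranged from -6.88 to -4.97 and passed in 3. ENSGMOT00000007277.1 and ENSGMOT00000006466.1 passed in 1 each (DESeq2), and ENSGMOT00000009267.1 in 0 (lowest adjusted p = 0.0777). Leaving out fish 7 and 8 together and the first principal component as a covariate (0 called each, 755 and 815 at an unadjusted p under 0.05) were added after seeing the data, as was leaving out fish for BaP. With 3 females, even differences well above the median SE of 0.366 could miss the main test. Those of 1.7 ± 0.26 (SE) for ENSGMOT00000006466.1 and -5.47 ± 1.09 for ENSGMOT00000000401.1 did not pass, so 0 calls do not show that large differences were absent.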
